A study of Mus musculus with 12 samples.

Results

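The nuclear genes of oxidative phosphorylation were followed in tongue-innervating trigeminal ganglion (TG) neurons of mice with and without a tongue tumor. Members were taken by gene symbol, as all rows that begin with Nduf followed by a, b, c, s or v, with Uqcr, with Cox4 to Cox8 or with Atp5, plus Sdha, Sdhb, Sdhc and Sdhd. This rule found 90 of the 22609 genes in the files. Of these, 87 encode subunits or assembly factors of complexes I to V, with 40 in complex I, 4 in complex II, 8 in complex III, 20 in complex IV and 15 in complex V. The other 3 were not counted as subunits or assembly factors here: Cox4nb and the ATP synthase-like genes Atp5s and Atp5sl. A minimum count was passed by 84 of the 90 members, and Ndufs5, Atp5g2, Cox6a2, Cox7b2, Cox8b and Cox8c did not pass it.

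The 12 libraries came from adult Balb/c athymic nude mice, in 4 groups of 3 libraries each. Normal males are called MN and normal females FN, and the males and females that carried a tumor MT and FT. Tumor mice carried HSC3 cells, an established human oral squamous cell carcinoma line, with 350000 cells injected into the tongue, and ganglia were taken at day 15. Normal mice had no cells according to the labels, while the study's methods describe immortalized normal oral keratinocytes, and these accounts were not settled here. In every group the neurons were marked from the tongue with the tracer dye WGA-488 and sorted by flow cytometry. A normal library pooled 4 ganglia of 2 mice and a tumor library 4 ganglia of 4 mice. Sex and tumor were thus compared between pools, and p-values measure the spread between these pools. According to the study's methods, tumor cells were injected unilaterally and only ganglia of the injected side were taken from tumor mice. The side of the ganglia therefore cannot be told apart from the tumor. Nude mice lack a thymus and most T cells, which limits them as a model of tumor immunity.

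Oxidative phosphorylation takes place in the inner mitochondrial membrane. Complexes I and II pass electrons from NADH and succinate to coenzyme Q, complex III hands them to cytochrome c, complex IV reduces oxygen, and complex V (ATP synthase) uses the resulting proton gradient to make ATP. Complexes I, III, IV and V also hold subunits made from mitochondrial DNA, among them the catalytic core of complex IV, whereas complex II and the catalytic F1 part of complex V are wholly nuclear-encoded. Sensory neurons rely on this pathway to maintain ion gradients along their axons. None of 26 mitochondrially encoded genes sought by name was found in the files, so that these subunits could not be followed here.

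Between 4592891 and 8922011 reads per library fell on genes, and 1 read was worth 0.112 to 0.218 CPM (the count scaled to the reads on genes). Markers of sensory neurons were present in every library, with 25 markers summing to 25649 to 35052 CPM. Their mean log2 difference from MN was −0.70 in FN2, −0.38 in FT2, −0.45 in FT3 and −0.28 to 0.02 in the other libraries. The share of reads with more than 1 mapping place was 56.0% in FN2, 68.4% in FT2 and 52.6% in FT3, against 43.0 to 45.5% in the other 9 libraries. Comparisons between groups that include these 3 libraries are therefore given with and without them. In bulk libraries, fewer cells of a type and less RNA per cell cannot be told apart.

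Per unit of transcript length, most members were high in normal male neurons. The highest level in MN was that of Atp5b, the catalytic beta subunit of ATP synthase, at 1185 ± 22.0 RPKM (CPM per kilobase of transcript, mean ± SD, n = 3). Ndufa4, named after complex I but a component of complex IV, followed at 1119.9 ± 52.8 RPKM and Cox4i1, a complex IV subunit of most tissues, at 1044 ± 87.0 RPKM. Ndufa4 was above Cox4i1 in each MN library, at 1175, 1115 and 1070 against 1139, 969 and 1024 RPKM. The order was the reverse in MT3, FN2 and FN3. Cox6b1 and Cox6a1 stood at 913 ± 74.2 and 804 ± 38.3 RPKM. Within complex I, the accessory subunits Ndufb8 at 459.8 ± 69.4 and Ndufa3 at 422 ± 26.6 RPKM led, and the core subunit Ndufs7 reached 304 ± 6.20 RPKM.

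**Figure D1:**
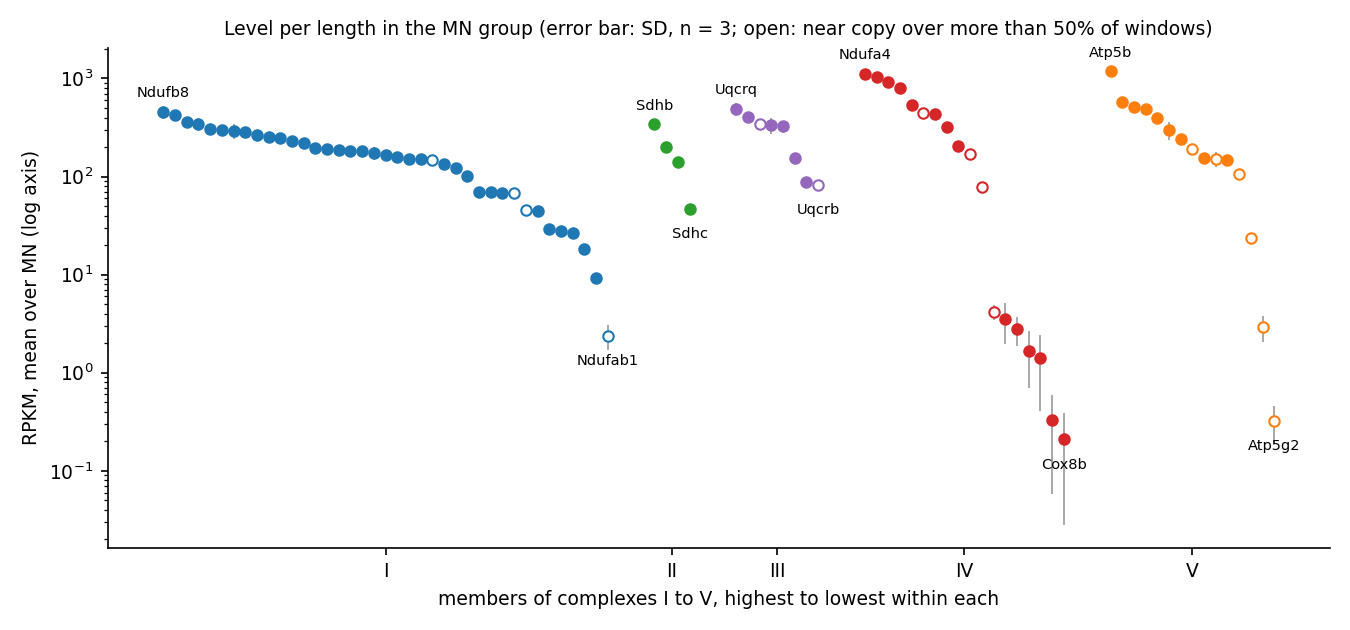
Mean RPKM in MN (log axis) of each member of complexes I to V, ordered from highest to lowest within its complex, with the SD over 3 libraries as error bar; members without a read in MN are left out. Open circles mark members with a near copy elsewhere in the genome over more than 50% of their 50-base windows, and the lowest points of complexes I and V, Ndufab1 and Atp5g2, are open circles.

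The core subunits of a complex did not share 1 level. In complex I, which takes electrons from NADH, Ndufv1 (231 ± 3.15 RPKM), Ndufs8 (219 ± 28.9) and Ndufv2 (182 ± 7.95) lay close together, while Ndufs1 (102 ± 5.85) and Ndufs3 (45.9 ± 2.06) were lower. In complex II, the iron-sulfur subunit Sdhb stood at 339.5 ± 15.3 RPKM, the catalytic subunit Sdha at 202 ± 9.33, and the membrane anchors Sdhd and Sdhc at 141 ± 12.8 and 46.8 ± 3.81. In complex III, the core protein Uqcrc1 reached 405 ± 7.78 RPKM, against 154 ± 9.25 for the Rieske protein Uqcrfs1 and 87.6 ± 6.11 for the core protein Uqcrc2. Among the F1 subunits of ATP synthase, Atp5d (577 ± 18.7) and Atp5a1 (515 ± 6.57) came after Atp5b. The lowest assembly factor of complex I was Ndufaf4 at 9.25 ± 0.570 RPKM.

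Several members that every cell uses were listed near 0, and their transcripts have copies elsewhere in the genome. In 17 of the 90 members, more than 50% of the 50-base windows (the read length) had a copy of at least 96% identity at another place. With exact copies only, 9 members (10%) were above that share, against 5.48% of 21626 genes. Atp5g2, a gene for the c-ring of ATP synthase, was at 0.281, 0.112 and 0.230 CPM in MN and at no more than 0.411 CPM in any library. Ndufs5, an accessory subunit of complex I, had 1 read in MT1, 1 read in FT1 and none in the other 10 libraries, and 3 reads would be 0.336 to 0.653 CPM. Cox7c, a complex IV subunit of most tissues, was at 2.53, 1.79 and 2.41 CPM in MN. Levels of these genes are therefore uncertain, as reads could be split between copies or left uncounted.

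A coding stretch of 50 bases is shown for Ndufs5, Atp5g1 and Cox7c beside its copy, since these letters decide where a read of that length can be placed. All are in the mm9 build, 5′ to 3′ of the gene's sense strand, and capitals mark the bases at which gene and copy differ.
Ndufs5 (exon, chr4:123393194-123393243, minus strand): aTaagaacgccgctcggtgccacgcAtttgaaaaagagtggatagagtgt
Ndufs5 copy (chr16:42955823-42955872, plus strand): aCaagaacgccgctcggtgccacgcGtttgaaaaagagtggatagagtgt
Atp5g1 (exon, chr11:95934421-95934470, minus strand): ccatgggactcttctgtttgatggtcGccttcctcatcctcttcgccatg
Atp5g1 copy (chr11:100223033-100223082, minus strand): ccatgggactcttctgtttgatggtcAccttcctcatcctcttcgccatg
Cox7c (exon, chr13:86186206-86186255, minus strand): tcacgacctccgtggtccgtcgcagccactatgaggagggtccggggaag
Cox7c copy (chr11:75413382-75413431, minus strand): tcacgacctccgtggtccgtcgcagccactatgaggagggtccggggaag

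The Cox7c stretch is the same at both places, and 400 of the 540 bases of its main transcript aligned without a mismatch to chr11:75413148-75413547, annotated as the pseudogene Gm12338 within Pitpna. Atp5g2 aligned over all 647 bases without a mismatch to the pseudogene Gm10231 (chr17:5816054-5816700), and over 645 bases to Gm10175 (chr7:24731665-24732309). The Atp5g1 copy, Gm10039, had 1 mismatch over 525 bases. The copy of Ndufs5 lies within Zbtb20, had 2 mismatches over 504 bases, and is the pseudogene BC002163, which the files do count. BC002163 was at 40.1, 38.4 and 38.1 CPM in MN, 47.3, 39.0 and 31.7 in MT, no more than 36.8 in FN1 and FN3, 96.7 in FN2, and 42.0, 228 and 71.8 in FT. Its highest values were thus in FT2, FN2 and FT3, the libraries in which most complex I members were also highest, while Ndufs5 itself was at or near 0 throughout.

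Summed over the 87 subunits and assembly factors, the level was 18502 ± 766 CPM in MN, 18898 ± 2349 in MT, 26599 ± 12972 in FN and 41071 ± 25783 in FT (mean ± SD, n = 3). By library, the sums were 19386, 18047 and 18072 CPM in MN and 21270.2, 18849 and 16574 in MT. In FN they were 20121, 41533 and 18141, and in FT 20222, 69901 and 33091. The higher means of FN and FT therefore lay in FN2, FT2 and FT3, whereas the other 9 libraries stayed within 0.896 to 1.15 times the MN mean. In those 9, the members took 1.66 to 2.13% of all reads on genes.

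**Figure D2:**
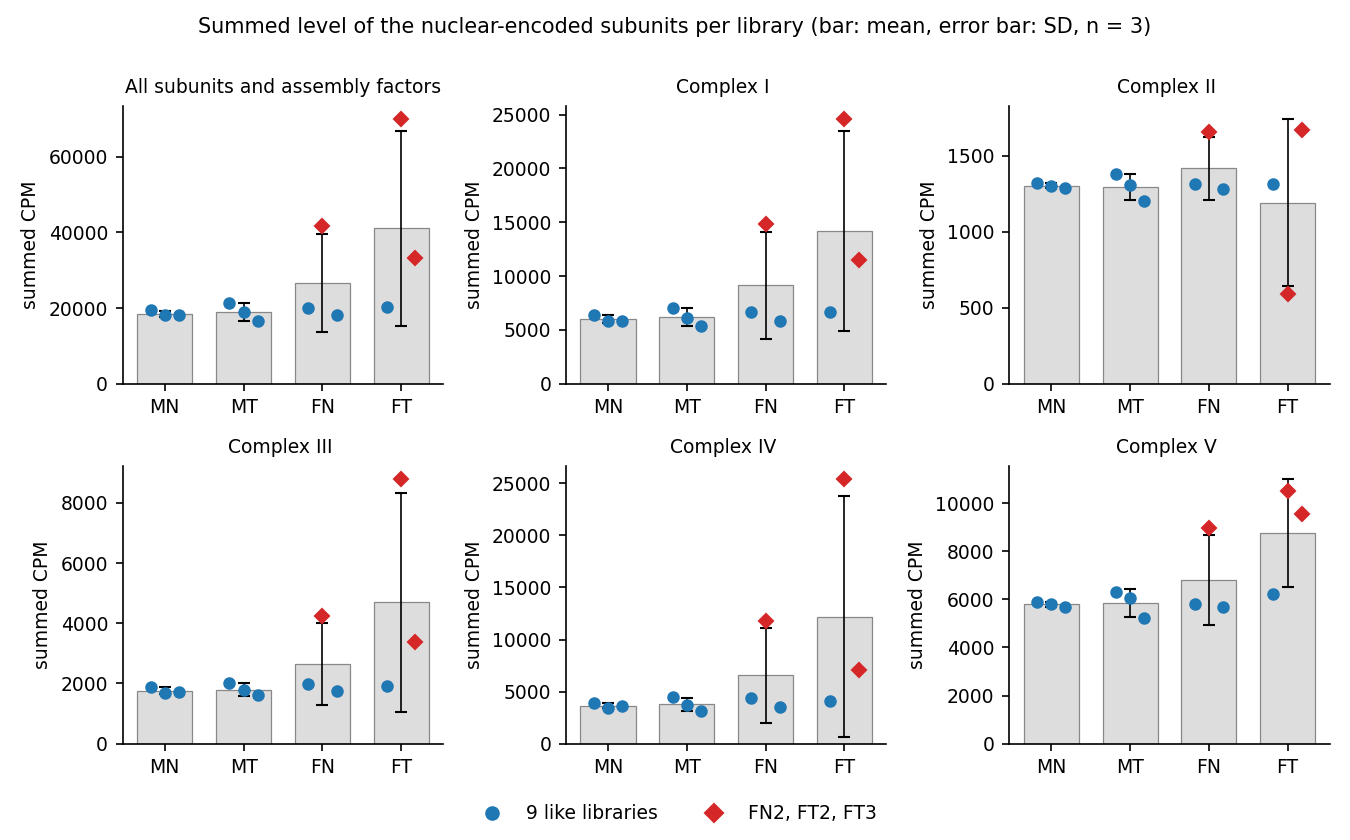
Summed CPM of the nuclear-encoded members, for all complexes together and for each of complexes I to V, with 1 point per library, the group mean as a bar and the SD over 3 libraries as error bar. FN2, FT2 and FT3 (diamonds) stand above the other libraries in every panel except complex II, where FT2 is the lowest library at 592 CPM.

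By summed CPM, the complexes moved by different amounts in these libraries. Complex IV was the furthest from the MN mean, at 3.24 times in FN2, 6.99 times in FT2 and 1.94 times in FT3. Complex I stood at 2.47, 4.09 and 1.91 times and complex III at 2.41, 5.00 and 1.91 times in the same libraries. Complex V reached 1.55, 1.81 and 1.65 times. Complex II, which also serves the citrate cycle, was at 1.27 times in FN2 and 1.28 times in FT3, but at 0.454 times in FT2. In the other 9 libraries complex II lay between 0.923 and 1.06 times the MN mean. These sums include members with a near copy over most of their windows. Without such members, complex III in FT2 summed to 5874 CPM against 1488 to 1669 in MN. Complex I then summed to 23569.5 CPM in FT2 against 5613 to 6208 in MN. Relative to MN, complex III thus no longer stood above complex I in FT2. Complex V was then at 7872 CPM in FT2 against 5405 to 5548 in MN, and complex IV at 23292 against 3057 to 3439. The sums weigh high members most, and median RPKM gave another order. In FT2 and FT3 it was 420 and 244 in complex IV against a mean of 124 in MN, and 579 and 401 in complex V against 193. Complex III was at 954 and 687 against 324, and complex I at 405 and 327 against 161.

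Gene by gene, most members in the 3 libraries were outside the range of the other 9. Of the 81 tested subunits and assembly factors, 74 were above all 9 in FN2, 59 in FT2 and 76 in FT3. Over 13655 genes with a transcript length, the shares above all 9 were 27.9%, 26.3% and 30.2%. These shares were not matched for length. Transcripts over 1500 bases belonged to 11117 of those genes but to only 16 of the 81 members. Below all 9 were Ndufs1, Sdha and Atp5a1 in FN2 and Ndufs1 and Sdha in FT3, whereas 50.0% and 41.3% of all genes were below in those libraries. In FT2, 21 members were below all 9, against 53.2% of all genes. These 21 included all 4 genes of complex II, 5 of the 7 core subunits of complex I, all 3 core subunits of complex III and 3 of the 5 F1 subunits of ATP synthase.

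The same libraries could hold high and low members of 1 complex. Ndufs1, the core subunit of complex I with the longest coding sequence, was at 258, 289 and 269.6 CPM in MN, 303, 301 and 260.0 in MT, 256, 42.1 and 249 in FN and 252, 48.3 and 83.0 in FT. Its low values were FN2, FT2 and FT3. Ndufs7, another core subunit, went the other way, at 226 to 236 CPM in MN, 610.3 in FN2, 963 in FT2 and 414 in FT3. Sdha was at 556, 602 and 603 CPM in MN, 573, 603 and 555 in MT, 571, 95.2 and 579 in FN and 542, 139.6 and 264 in FT. Its partner Sdhb was at 370.2 to 405 CPM in MN and at 988 in FN2, 346 in FT2 and 729 in FT3. Sdhd, a membrane anchor, was at 33.3 CPM in FT2, its lowest value, and at 374 in FT3, its highest.

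Within ATP synthase, the catalytic subunit Atp5b was at 2244, 2319 and 2247 CPM in MN, 2445, 2436 and 2100.4 in MT, 2173, 2740.3 and 2279 in FN and 2309.9, 1329.7 and 3765 in FT. FT2 was its lowest and FT3 its highest library. Atp5k, a small membrane subunit, was at 67.3, 47.7 and 53.4 CPM in MN, 70.2, 52.7 and 38.3 in MT, 65.4, 161 and 50.5 in FN and 65.7, 1896 and 118 in FT. The FT mean of Atp5k rested on FT2, and 80% of its windows had a near copy elsewhere. In complex IV, Cox4i1 was at 774, 658 and 695 CPM in MN, 869, 735 and 683 in MT, 904, 3396 and 769 in FN and 845, 7814 and 1437 in FT. Ndufa4 also had its 3 highest values in FT2 (6313 CPM), FN2 (1974) and FT3 (1055), against 526 to 578 in MN. Uqcrc1 of complex III was at 655 to 680.0 CPM in MN and at 1349 in FN2, 393 in FT2 and 1216 in FT3, while the small accessory subunit Uqcr10 was at 2365 CPM in FT2 against 126 to 163 in MN.

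**Figure D3:**
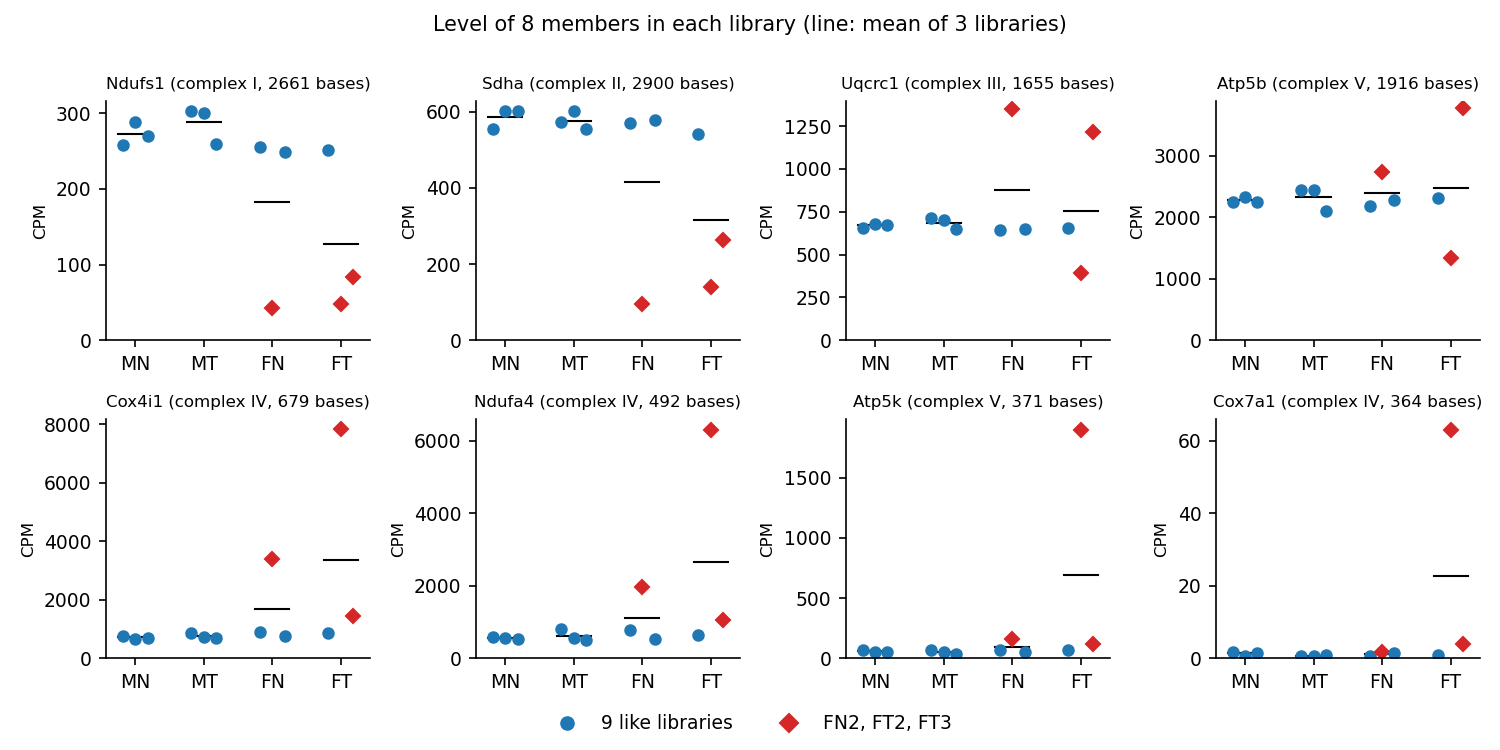
CPM of Ndufs1, Sdha, Uqcrc1, Atp5b, Cox4i1, Ndufa4, Atp5k and Cox7a1 in each of the 12 libraries, with the group mean as a line and the length of the main transcript in each title. FN2, FT2 and FT3 (diamonds) are low for Ndufs1 and Sdha and high for Cox4i1 and Ndufa4, and FT2 sets the FT mean of Atp5k and Cox7a1.

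Members that were low in FT2 had longer transcripts than those that were high. The log2 ratio to the MN mean in FT2 ran against the log2 length of the main transcript with Spearman's rho −0.75 over the 81 members and −0.74 with coding length. For all 13655 genes in FT2 the value was −0.03. In FN2 and FT3 rho was −0.48 and −0.42 over the members and −0.48 and −0.57 over all genes. These points share a library, so that the values describe it and carry no test.

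In FT2, the 35 members with a transcript under 700 bases had a median log2 ratio of 2.85, against 1.55 for 372 genes of that length. The 30 members of 700 to 1500 bases were at 1.22 (all genes −0.11), and the 16 members over 1500 bases at −0.77 (all genes −0.62). In FN2 and FT3 short genes in general were also high. Members under 700 bases were at 1.47 in FN2 (all genes 1.32) and 1.02 in FT3 (all genes 0.92). Those of 700 to 1500 bases were at 1.38 in FN2 (all genes 1.04) and 0.99 in FT3 (all genes 0.82). In FN2, members over 1500 bases were still at 0.78, where all genes of that length were at −0.71. In FT3 the same figures were 0.84 and −0.41. Long members and long genes in general thus went opposite ways in FN2 and FT3, and the same way in FT2. Ndufa11, with an annotated transcript of 2661 bases but a coding length of 432, was at 1683 CPM in FT2 against 166 to 208 in MN, among the highest of the long group.

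**Figure D4:**
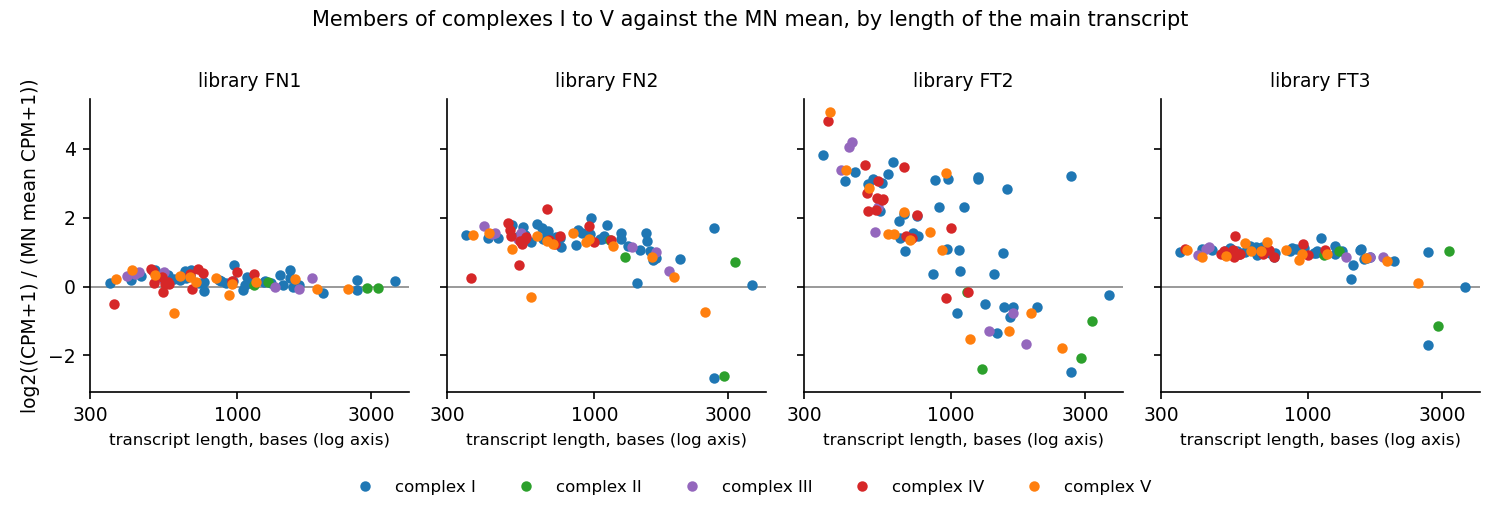
Log2 ratio of the CPM of each tested member to its MN mean (1 CPM added to both) against the length of the main transcript in bases (log axis), in libraries FN1, FN2, FT2 and FT3, with points colored by complex. In FN1 the members stay near 0. In FN2 and FT3 most lie above 0, with 4 below it in FN2 and 3 in FT3, Ndufs1 and Sdha in both. In FT2 the members slope from above 4 to below −2 with length.

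Without FN2, FT2 and FT3, members varied little. Over the other 9 libraries the coefficient of variation had a median of 12.1% over the 81 members, with a median of 7.18% in complex II, 11.5% in complex I, 12.0% in complex V, 15.1% in complex III and 16.1% in complex IV. The steadiest were Uqcrc1 at 3.74% and Sdha at 3.99%. Members of low level varied more, with 55.5% for Ndufa4l2, the highest of the 81, 42.8% for Atp5l, 38.8% for Cox4i2, 28.7% for Ndufab1 and 22.5% for Atp5g1.

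Complex IV has tissue-restricted isoforms for several subunits, and their levels were low in these neurons. As a share of the RPKM of each pair in the 9 libraries, Cox4i2, the hypoxia-responsive form of Cox4i1, made up 0.159 to 0.421%, and Ndufa4l2 made up at most 0.211% beside Ndufa4. The muscle form Cox7a1 made up 0.416 to 1.42% beside Cox7a2, and Cox6a2, also a muscle form, at most 0.158% beside Cox6a1. Cox6b2, known from testis, made up 0.0681 to 0.314% beside Cox6b1. Cox8b, Cox8c and Cox7b2 had at most 2 reads in any of the 9 libraries.

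Cox7a1 differed in FT2. It was at 1.83, 0.672 and 1.38 CPM in MN, 0.629, 0.695 and 0.741 in MT, 0.629, 1.70 and 1.51 in FN and 0.823, 62.9 and 3.90 in FT, so that FT2 alone was above 4 CPM. In FT2 it made up 11.4% of the Cox7a1 and Cox7a2 pair by RPKM. Of 14 striated muscle genes, 10 stayed below 1 CPM in every library, and the 14 summed to 25.3 CPM in FT2, 34.2 in FN2 and 7.17 to 20.9 elsewhere. The 14 pericyte and smooth muscle genes summed to 148 CPM in FT2, within the range of 111 to 320.4 in all libraries. Single genes of this list went different ways in FT2, where Higd1b had its highest value (19.2 CPM, against 9.62 in FT3 and 0.556 to 3.70 elsewhere) and Acta2 (16.1 CPM), Vtn (1.09) and Abcc9 (0.435) their lowest. The part of these cells in the Cox7a1 value was not tested.

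The question of sex in normal mice was addressed by FN against MN, without genes on X and Y. The median member was 0.86 higher in FN on the log2 scale (all genes 0.07), with 76 of 81 members above 0 (54.3% of all genes). No member passed an adjusted p of 0.05 (edgeR's quasi-likelihood test, lowest 0.81), nor did any of 13360 genes, while 3 members and 744 genes (5.57%) had an unadjusted p under 0.05. By DESeq2 0 members and 20 genes (0.15%) passed the adjusted threshold. The study's criteria (unadjusted p under 0.05, fold over 1.5, RPKM over 5) were met by 3 of 81 members, all higher, against 3.81% of all genes. These were Ndufc2, an accessory subunit of complex I, with a log2 difference of 1.06 (SE 0.475), Cox7a2l, which helps to assemble respiratory supercomplexes, with 0.94 (SE 0.423), and Ndufs4, another accessory subunit of complex I, with 1.03 (SE 0.482). Cox7a2l was at 95.2, 92.4 and 79.9 CPM in MN and 115, 228 and 110.0 in FN, without overlap. In all, 6 members in FN were above every MN library (9.66% of all genes) and 2 below (10.2%), so that non-overlap was not more frequent than in the background.

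Without FN2, FT2 and FT3, the median of the FN against MN comparison was 0.02 and no member met the criteria, against 3.66% of all genes. Cox7a2l then differed by 0.28 (SE 0.129, adjusted p = 0.33, edgeR). The count of 3 changed with the libraries used. It was 0 without FN2 or any library of MN or MT, 13 without FN1, 20 without FN3, 8 without FT1 and 11 without FT2. Ndufs1 and Sdha, the lowest p-values on the lower side, had differences of −0.58 (SE 0.543) and −0.50 (SE 0.500), and of −0.16 and −0.08 in the 9 libraries.

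Macrophage markers also differed between FN and MN. In FN, 12 of 17 met the criteria as higher, against 3.81% of all genes. The 17 summed to 513, 273 and 223 CPM in FN1, FN2 and FN3, against 36.4 to 56.0 in MN. Their highest FN sum was thus in FN1, while that of the members was in FN2. Satellite glia markers summed to 9494 to 17760 CPM in FN against 5315 to 6298 in MN, with 2 of 11 tested past the criteria. Endothelial markers summed to 1677 to 2013 CPM in FN against 633 to 1535 in MN. Averaged over markers, the log2 difference from MN was 0.59, −0.12 and 0.56 in FN1, FN2 and FN3 for satellite glia. For endothelial markers it was 1.01, −0.83 and 1.01, so that in FN2 the sums did not stand for most markers. The part of these cells in the values of the members was not tested.

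In males, the tumor was compared with the normal tongue by MT against MN. The member levels were close in the 2 groups, with a median log2 difference of 0.05 (all genes 0.01) and 57 of 84 members above 0 (51.2% of all genes). No member passed an adjusted p of 0.05 or an unadjusted p of 0.05, and none met the criteria, against 0.152% of all genes. Of 17 macrophage markers, 4 met the criteria as higher, and their sum was 389.8 CPM in MT3, 37.5 in MT2 and lower still in MT1, against 36.4 to 56.0 in MN, so that MT3 alone was above MN. Across the 13835 genes tested, 0 passed the adjusted threshold by edgeR, 2 by DESeq2 (0.0145%), and 59 (0.426%) had an unadjusted p under 0.05. The median SE of a member was 0.56 in this fit and 0.14 in the 9 libraries, where the median difference was again 0.05. Differences of this size were below what the libraries could show.

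By library, Ndufc2 and the core subunit Ndufv1 were above every MN library in MT (5.8% of all genes), and Atp5g1 and Atp5sl below (7.32%). Ndufc2 was at 115, 119.7 and 103 CPM in MN and 146, 125 and 121 in MT, a log2 difference of 0.24 (SE 0.470). In the 9 libraries none met the criteria (0.971% of all genes) and 1 member, Cox7a2l, had an unadjusted p under 0.05 (7.25% of all genes), with a difference of 0.26 (SE 0.116) and an adjusted p of 0.68 (edgeR). By complex, the medians were 0.06 in complex I, −0.01 in II, 0.05 in III, 0.01 in IV and 0.04 in V.

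**Figure D5:**
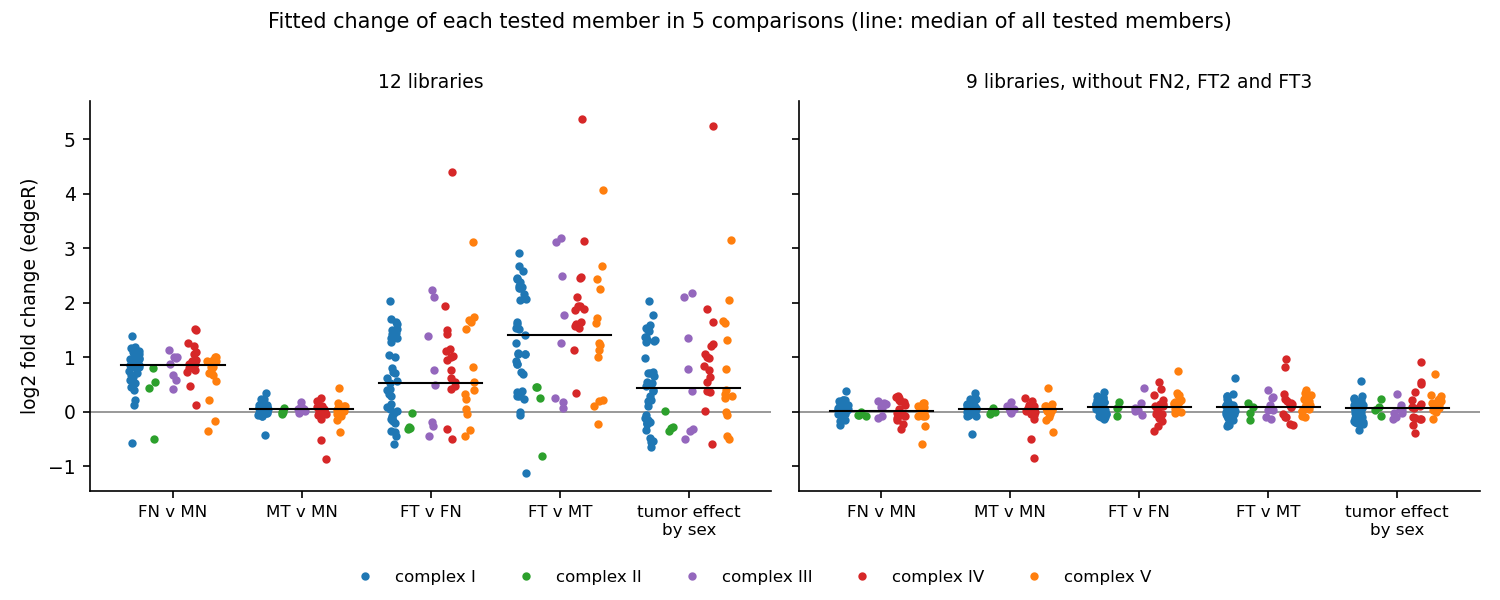
Log2 fold change (edgeR) of each tested member in 5 comparisons, colored by complex, with the median of all tested members as a line, from the fit of 12 libraries (left) and of 9 libraries without FN2, FT2 and FT3 (right). The medians of 0.86 (FN against MN), 0.53 (FT against FN) and 1.42 (FT against MT) on the left stand at 0.02, 0.09 and 0.09 on the right, and MT against MN is at 0.05 in both.

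In females, FT against FN gave a median log2 difference of 0.53 (all genes −0.06), and 59 of 84 members were above 0 (44.4% of all genes). No member passed an adjusted p of 0.05 (edgeR, lowest 0.99), nor did any of 13835 genes, of which 528 (3.82%) had an unadjusted p under 0.05. By DESeq2, 0 members and 0 genes passed. The criteria were met by 12 members, all higher, against 2.11% of all genes. They were 4 of complex I (Ndufa3, Ndufaf2, Ndufv3 and Ndufb2), 2 of complex III (Uqcr10 and Uqcr11), 2 of complex IV (Cox7a1 and Cox6b2) and 4 of complex V (Atp5g1, Atp5k, Atp5j2 and Atp5l). Cox7a1 had the largest difference at 4.39 (SE 1.21), then Atp5k at 3.11 (SE 1.04), Uqcr11 at 2.23 (SE 0.877) and Uqcr10 at 2.11 (SE 0.840). All 4 had their highest value in FT2, and Uqcr11 was at 202, 452 and 145 CPM in FN and 166, 2791 and 335 in FT. Of these 4, Atp5k and Uqcr11 had a near copy over most of their windows, which leaves their counts uncertain. Complex II was the exception among the complexes in the 12 libraries, with a median of −0.29 and none of its 4 genes above 0. Without FN2 and FT2 its median was 0.70, against 0.65 to 0.74 in complexes I, III, IV and V. Without FN2, FT2 and FT3 it was 0.08.

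Atp5g1 was the 1 member whose FT libraries were all above FN, at 7.92, 11.2 and 11.4 CPM in FN and 11.9, 42.7 and 34.9 in FT (1.22% of all genes). In the 9 libraries, which keep FT1 and 2 FN libraries, the median was 0.09 and no member met the criteria, against 1.18% of all genes. The lone FT library is there assumed to vary like the other groups. Without FT2 the count of 12 was 1 and without FN1 or FN3 it was 3, while it was 56 without FN2, 34 without FT1 and 24 without FT3. Ndufaf1, an assembly factor of complex I, had the lowest p on the lower side, at 41.6, 84.8 and 38.5 CPM in FN and 36.4, 15.0 and 62.6 in FT.

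FT against MT compared the sexes among tumor mice, again without X and Y, and held the largest differences. The median member was 1.42 higher in FT (all genes 0.07), with 74 of 81 above 0 (54.1% of all genes), and 46 of 81 met the criteria, all higher, against 7.37% of all genes. They were 20 of 37 members in complex I, 5 of 8 in complex III, 12 of 15 in complex IV and 9 of 14 in complex V, but 0 of 4 in complex II. Without FN2 and FT2, 2 of the 4 genes of complex II met the criteria, against 2000 of 13462 genes. No member and none of 13360 genes passed an adjusted p of 0.05 by edgeR, while by DESeq2 21 members and 246 genes (1.84%) did, and 46 members and 1610 genes (12.1%) had an unadjusted p under 0.05 by edgeR. Cox7a1 differed by 5.38 (SE 1.28), Atp5k by 4.07 (SE 1.09), Uqcr11 by 3.20 (SE 0.912), Uqcr10 by 3.12 (SE 0.874) and the assembly factor Ndufaf2 by 2.59 (SE 0.752), each with an adjusted p from 0.30 to 0.32 (edgeR). Near copies leave the counts of Atp5k and Uqcr11 uncertain here too. Ndufaf2 was at 19.0, 15.4 and 14.3 CPM in MT and 20.7, 177 and 35.8 in FT, so that FT1 lay just above MT and FT2 far above it.

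All 3 FT libraries were above all MT libraries for 20 members (8.03% of all genes), and below them for Ndufs1, Sdha and Atp5s (9.61%). Among the 20 were Cox6a1, at 506, 473 and 382 CPM in MT and 515, 2685 and 883 in FT, and Atp5e, the epsilon subunit of ATP synthase, at 140.4, 95.9 and 97.5 in MT and 144, 1317 and 229 in FT. Ndufs1 differed by −1.12 (SE 0.548) and Sdha by −0.80 (SE 0.502). In the 9 libraries, where FT is FT1 alone, the median was 0.09 and none met the criteria, against 2.44% of all genes. Without FT2 the count of 46 was 2 and without MT3 it was 30, whereas without both FN2 and FT2 it was 45, of which 44 were higher and Ndufs1 was lower, and without FT1 31 members passed the adjusted threshold (edgeR). Satellite glia markers summed to 7729 to 19394 CPM in FT and 4633 to 5940.4 in MT. Macrophage markers (8 of 17 tested) and satellite glia markers (6 of 11 tested) met the criteria as higher in FT, against 7.37% of all genes. Their part was not tested. Without FN2, FT2 and FT3, none of the 17 macrophage markers and 4 of the 11 glia markers did so.

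Whether the tumor effect differed by sex was tested as the difference between FT against FN and MT against MN. No member and none of 13835 genes passed an adjusted p of 0.05 (edgeR), and 3 members and 203 genes (1.47%) had an unadjusted p under 0.05. By DESeq2, 0 members and 0 genes passed. Those 3, which also met the criteria (0.535% of all genes as higher), were Cox7a1 with a difference of 5.25 (SE 1.72), Atp5k with 3.15 (SE 1.39) and Atp5g1 with 2.06 (SE 0.702). The median member was at 0.44 (all genes −0.07), and at 0.08 in the 9 libraries, where none met the criteria (2.36% of all genes). The count of 3 was 31 without FN2, 14 without FT1, 5 without FT3 and 1 without FT2.

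Other genes of energy metabolism were read from fixed lists. Atpif1, an inhibitor of ATP synthase, was at 384 to 482 CPM in MN, and at 1394 in FN2, 4346 in FT2 and 892 in FT3. In FT against MT, where 7.37% of all genes met the criteria as higher, all 3 further ATP synthase genes (Atpif1, Usmg5 and 2010107E04Rik) did so. Of 26 assembly factors outside the symbol rule, 6 did so (Atpaf2, Bcs1l, Cox16, Cox17, Fam36a and Pet112l), with a median of 0.41 on the log2 scale. None of 16 tested genes of the citrate cycle and pyruvate entry did (median −0.27), nor of 8 mitochondrial carriers and porins (0.16) or 14 glycolysis genes (−0.02). Cytochrome c1 (Cyc1), which sits in complex III, was at 547.9 CPM in FN2, 208 in FT2 and 554 in FT3 against 284 to 320.2 in MN. Among 12 regulators of mitochondrial biogenesis, Esrra and Yy1 met the criteria as higher in FT against MT. Both had their highest value in FT2, with Esrra at 10.7, 309 and 24.4 CPM in FT and Yy1 at 6.72, 36.4 and 7.25. Without FN2, FT2 and FT3, none of the 3 ATP synthase genes (median 0.12), the 26 assembly factors (−0.15) or the 12 regulators (0.11) met the criteria in this comparison, nor did any gene of the citrate cycle (−0.11), carrier (−0.17) or glycolysis (−0.10) lists.

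Promoters of the members were searched for letters of 4 factors known from these genes. RefSeq promoters of the GRCm38.p6 build (250 bases before to 50 after the start) were matched for 72 of the 87 subunits and assembly factors. The palindromic core of nuclear respiratory factor 1 (NRF1), read on both strands, was in 18 of the 72 (25%), against 5.19% of 27025 genes. The ETS letters CCGGAAGT were in 6.94% (4.31% of all genes), the CRE letters TGACGTCA in 5.56% (2.03%) and a YY1 motif in 5.56% (0.755%). Atp5h held both the NRF1 and the ETS letters, Ndufa11 the NRF1 and CRE letters and Ndufs6 the NRF1 and YY1 letters. A match is a description of letters, and binding was not measured.

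The 250 bases before the start are shown for a gene of complexes I, II, IV and V that held the NRF1 letters, in capitals, because these genes went different ways in FT2. Cox6a1, with 2 matches, was at 2685 CPM in FT2 against 434 to 474 in MN, whereas Sdha, with 3 matches, was at 139.6 against 556 to 603 and Atp5c1 at 98.2 against 279.8 to 284. All are on the minus strand, written 5′ to 3′ of the gene.
Ndufa8 (GRCm38.p6, chr2:36049339-36049588): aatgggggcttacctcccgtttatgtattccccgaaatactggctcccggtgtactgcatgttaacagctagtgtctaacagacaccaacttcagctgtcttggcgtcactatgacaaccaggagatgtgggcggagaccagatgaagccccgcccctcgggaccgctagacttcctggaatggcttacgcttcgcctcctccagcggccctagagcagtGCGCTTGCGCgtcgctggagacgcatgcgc
Sdha (GRCm38.p6, chr13:74350241-74350490): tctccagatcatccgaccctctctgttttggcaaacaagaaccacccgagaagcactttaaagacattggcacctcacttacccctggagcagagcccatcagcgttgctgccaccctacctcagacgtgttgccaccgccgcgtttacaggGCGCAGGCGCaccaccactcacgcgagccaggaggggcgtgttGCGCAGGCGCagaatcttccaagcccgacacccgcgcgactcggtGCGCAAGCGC
Cox6a1 (GRCm38.p6, chr5:115348959-115349208): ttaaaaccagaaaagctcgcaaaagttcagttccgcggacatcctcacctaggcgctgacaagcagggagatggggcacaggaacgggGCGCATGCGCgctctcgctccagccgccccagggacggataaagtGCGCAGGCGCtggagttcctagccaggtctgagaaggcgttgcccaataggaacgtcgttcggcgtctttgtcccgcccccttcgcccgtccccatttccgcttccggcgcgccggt
Atp5c1 (GRCm38.p6, chr2:10080433-10080682): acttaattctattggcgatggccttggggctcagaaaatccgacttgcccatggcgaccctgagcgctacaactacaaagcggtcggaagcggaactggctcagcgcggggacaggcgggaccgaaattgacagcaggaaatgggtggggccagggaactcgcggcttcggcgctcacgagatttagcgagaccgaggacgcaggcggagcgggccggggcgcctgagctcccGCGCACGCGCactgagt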

How the data were processed

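Gene counts were deposited by the authors as whole reads per gene for 12 libraries of sorted TG neurons (SMART-seq2, 50-base single reads). The authors mapped reads with TopHat2 to mm9 and counted them with HTSeq, while versions, annotation and strand setting are not given in the sources used here. Rows without a gene name, 76.3 to 88.8% of all reads, were left out. The files hold 4592891 to 8922011 reads on genes per library, where 3 reads equal 0.336 to 0.653 CPM, for counting error only. CPM and RPKM (main transcript: longest coding sequence) were computed from the counts.

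The 4 groups of 3 libraries were fitted together by edgeR 4.0.16 (quasi-likelihood, TMM, minimum count 10, minimum total 15, R 4.3.3) over 13835 genes, with Benjamini-Hochberg adjustment. DESeq2 1.42.0 and limma 3.58.1 were alternatives, with DESeq2's size factors in edgeR, library size scaling, no filter, only the groups compared, a replicate block and each library left out. Fits without FN2, FT2 and FT3, with the share of reads mapped to several places as a covariate and with a length and GC offset were also made. Copies were sought with blastn 2.17.0. Scripts were tested on simulated data. Genes named were the core subunits, restricted isoforms of complex IV and c-ring genes, the 3 highest and 3 lowest of each complex, up to 5 past the criteria and the 3 lowest p-values in each direction of a comparison, and the 5 of largest log2 spread over 9 libraries. Values of 1 core subunit are not reported here. Others, such as those picked for non-overlap, small size or a library's extreme value, were chosen after their values were seen. Members and lists were chosen with earlier results of these data known.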

Additional observations from a re-analysis of the deposited data

Results flagged for a closer look

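Atp5g1, a gene for the c-ring of ATP synthase, was singled out because its tumor libraries moved opposite ways in the 2 sexes. All FT libraries were above all FN libraries (1.22% of all genes) and all MT libraries below all MN libraries (7.32%). The separation in females was narrow, with 87 reads in FT1 and 83 in FN3. The log2 ratio of tumor to normal mean CPM (1 CPM added) was 1.84 higher in females than in males. The interaction in the fit of 12 libraries was 2.06 (SE 0.702, edgeR, adjusted p = 1.00), and 0.69 (SE 0.451) without FN2, FT2 and FT3. A near copy over 87% of its windows leaves its counts uncertain.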

How the results depend on the processing

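In FN against MN, the count of members past the criteria (3) was 7 by DESeq2 and 1 with only the groups compared, all higher. It was 1 by limma-voom, with the length and GC offset and with that offset in 9 libraries, where Atp5g1 was lower and none was higher, and 0 with library size alone, the replicate block, the covariate, 10 libraries or 9 libraries. Its median (0.86) was 0.092 by limma-voom, 0.014 in 10 libraries, 0.020 in 9, 0.16 with the covariate, 0.11 with the offset and −0.11 with the offset in 9 libraries. In FT against FN the count (12) was 19 by DESeq2 and without the filter, 3 with only the groups compared, 36 in 10 libraries, 1 with the covariate and 0 in 9 libraries with or without the offset. In FT against MT the adjusted count (0 by edgeR, with 46 at an unadjusted p under 0.05) was 21 by DESeq2, and the count past the criteria (46) was 29 by limma-voom (27 higher, 2 lower) and 0 in 9 libraries, with the covariate and with the offset in 9 libraries. Its median (1.42) was 0.83 by limma-voom, 0.67 in 10 libraries, 0.088 in 9, 0.062 with the covariate, 0.55 with the offset and −0.052 with the offset in 9 libraries. For the effect by sex the count (3) was 7 by limma-voom (6 higher, 1 lower), 1 with the covariate and 0 in 9 libraries with or without the offset. The medians of FT against FN (0.53) and of the effect by sex (0.44) ran from −0.14 to 0.70 and from −0.08 to 0.66 over these settings, and were below 0 with the covariate. The causes were not tested. The 9 libraries leave out FN2, FT2 and FT3, and the 10 leave out FN2 and FT2. The offset in 9 libraries was chosen after seeing the data.

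With 1 library left out, counts ranged from 0 to 20 (FN against MN), 0 to 0 (MT against MN), 1 to 56 (FT against FN), 2 to 57 (FT against MT) and 1 to 31 (by sex), and the adjusted count in FT against MT from 0 to 31. Medians ranged from 0.036 to 1.15, −0.11 to 0.16, −0.14 to 1.30, 0.66 to 1.75 and −0.19 to 1.29.

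Deviations of same-numbered libraries correlated at −0.35 to 0.57. Libraries of different numbers were not compared in this way, so whether replicate numbers pair the libraries was not decided. With the replicate block the counts were 0, 0, 14, 46 and 2, and the medians 0.60, 0.05, 0.57, 1.20 and 0.48.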
